A study of Mus musculus with 2 samples.

Results

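The genes described here are Lepr, which encodes the leptin receptor, and 9 genes that act beside or below it: Leprot, Leprotl1, Jak2, Stat3, Socs3, Ptpn1, Ptpn11, Irs1 and Irs2. They were taken by symbol, and all 10 are among the 28692 genes listed in both libraries. Their transcripts were counted in single lung cells of mice of genotype Lepr-Cre;Rosa26-tdtomato, aged 8-10 weeks. The mice had received bleomycin, a DNA-damaging drug that is used to induce lung fibrosis, or saline. Both groups carry the same Cre and reporter, and live tdtomato+ cells were sorted in both. A cell is labelled when the Lepr-driven Cre has been active in it or in a cell it descends from, so the label marks a history of Lepr activity and not present Lepr mRNA. The Lepr-Cre line, the place of its insertion, the number of mice pooled, the bleomycin dose and the day of collection are facts not given in the sources used here, and the reporter and Cre transcripts were not analysed here.

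The leptin receptor is a cytokine receptor of the gp130 family whose long form binds the kinase JAK2. Leptin, a hormone of fat cells, brings JAK2 to phosphorylate the receptor, and STAT3 docks there, is phosphorylated and enters the nucleus. SOCS3, made under STAT3, binds the receptor and JAK2 and shuts the signal off, and the phosphatase PTP1B, the product of Ptpn1, removes phosphate from JAK2. SHP2, the product of Ptpn11, links the receptor to the MAP kinase pathway, and IRS1 and IRS2 link it to PI3 kinase. These steps are mostly changes of phosphorylation, which transcript counts do not show. STAT3 and SOCS3 also serve the receptors of interleukin 6, interleukin 11 and oncostatin M, so they are not markers of leptin alone.

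The design holds 1 library per group, so no spread between animals exists, no test was made, and treatment and library cannot be told apart. After the filters there were 4468 cells in the bleomycin library, with a median of 12409 UMIs (unique molecular identifiers, counts of single captured transcripts) per cell, and 5432 in the saline library, with a median of 6364.5. Levels are UMIs per 1000000 UMIs of a class and library (UPM), and square brackets hold exact 95% intervals that cover counting error only. Cells were clustered on genes other than these 10 and the pathway genes below. Clusters were named from marker genes, and a name such as fibroblast stands throughout for a cell like that type. The fibroblast class held 3603 bleomycin cells and 3663 saline cells, and the alveolar macrophage class 334 and 681. The sum of 8 fibroblast markers in the fibroblast class was 16666 UPM in bleomycin cells and 8992 UPM in saline cells, and the sum of 7 immune markers was 22.0 and 37.5 UPM. Epithelial cells numbered 6 after bleomycin and 516 after saline. Saline epithelial cells were taken to give the level that free RNA alone may produce. That they make no Lepr mRNA of their own was assumed and not tested, and they passed the same sort.

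Fibroblasts held far less Lepr mRNA after bleomycin than after saline, although both were sorted for a reporter that Lepr switches on. Bleomycin fibroblasts had 186 Lepr UMIs, or 3.45 UPM [2.98 to 3.99], against 1178 UMIs, or 44.3 UPM [41.8 to 46.9], in saline fibroblasts. The level was thus 12.8-fold lower [11.0 to 15.05] after bleomycin as a plain ratio, and the log2 ratio of bleomycin over saline, taken with 1 UPM added to each level, was -3.35. A gene is called higher or lower here only by size, when it had at least 50 UMIs and 20 UPM in the higher library and differed at least 2-fold. By this rule 2 of the 9 members with enough UMIs, Lepr and Socs3, were lower in bleomycin fibroblasts and 0 were higher. Of all 5884 genes with enough UMIs in fibroblasts, 9.62% were lower and 6.22% higher, so that such a size is common in this comparison. Over all cells of each library the same 2 of 9 members were lower and 0 higher, beside 9.43% lower and 4.99% higher of all genes.

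Detection per cell followed the level. With every cell thinned to 2000 UMIs, 25 of 3603 bleomycin fibroblasts (0.694% [0.450 to 1.02]) and 331 of 3663 saline fibroblasts (9.04% [8.13 to 10.0]) held a Lepr UMI. Without thinning the shares were 3.97% at a median of 13692 UMIs per cell in bleomycin fibroblasts and 23.9% at a median of 6847 in saline fibroblasts. Saline epithelial cells, with a median of 6187 UMIs, held a Lepr UMI in 2 of 516 thinned cells (0.388% [0.0470 to 1.39]) and in 3.29% of cells unthinned. The thinned share in bleomycin fibroblasts overlapped this background, whereas that in saline fibroblasts lay above it. The background of the bleomycin library itself could not be read from its 6 epithelial cells. Most cells with the receptor mRNA held a single UMI: 117 of 143 among bleomycin fibroblasts and 658 of 875 among saline fibroblasts. The most in a fibroblast was 7 UMIs after bleomycin and 6 after saline.

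The lower Lepr level was found within the fibroblast kinds that both libraries share. Adventitial fibroblasts, the cells around vessels and airways, were a single cluster with cells of both libraries, marked by Pi16, Serpinf1 and Sfrp4. Lepr stood at 18.2 UPM [12.6 to 25.4] in 191 bleomycin cells of this kind, against 134.5 UPM [116 to 155] in 267 saline cells, a 7.41-fold lower level [5.13 to 11.0] and a log2 ratio of -2.82. Alveolar fibroblasts, the lipid-rich cells of the alveolar wall, had 5.37 UPM [3.70 to 7.54] after bleomycin and 33.3 UPM [31.0 to 35.8] after saline, a 6.21-fold lower level [4.38 to 9.09] and a log2 ratio of -2.43. The alveolar kind came from different clusters in each library, mostly cluster 0 after bleomycin and clusters 12, 20, 21 and 22 after saline. In each of these 2 kinds Lepr and Socs3 were the 2 lower members of 8 tested and 0 were higher. Of all genes tested, 6.26% were lower and 3.87% higher in adventitial fibroblasts, and 3.74% were lower and 2.11% higher in alveolar fibroblasts.

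Fibroblast states of the bleomycin library held the lowest levels. Fibrotic fibroblasts, marked by Cthrc1, Grem1 and Ptn and almost all from the bleomycin library (1993 cells against 10), had 77 Lepr UMIs, or 2.34 UPM [1.85 to 2.93]. Among them cluster 7, with Mmp13 and S100a4 among its leading genes, had 9 UMIs in 678 cells, or 0.723 UPM [0.331 to 1.37], the lowest of the 23 groups of cluster and library with at least 100 cells. Cluster 1, 823 bleomycin fibroblasts led by Thbs4, Fmod and Timp1, had 3.18 UPM [2.29 to 4.32]. Cluster 17, 398 saline fibroblasts that could not be given a kind and were led by Adh7, C1qtnf3 and Pi16, had 96.2 UPM [84.4 to 109]. Saline alveolar fibroblasts were uneven too, with 68.8 UPM [60.6 to 77.8] in cluster 20 and 25.1 to 28.2 UPM in clusters 12, 21 and 22. The intervals of clusters 12, 21 and 22 overlapped, and that of cluster 20 lay above all 3.

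**Figure D1:**
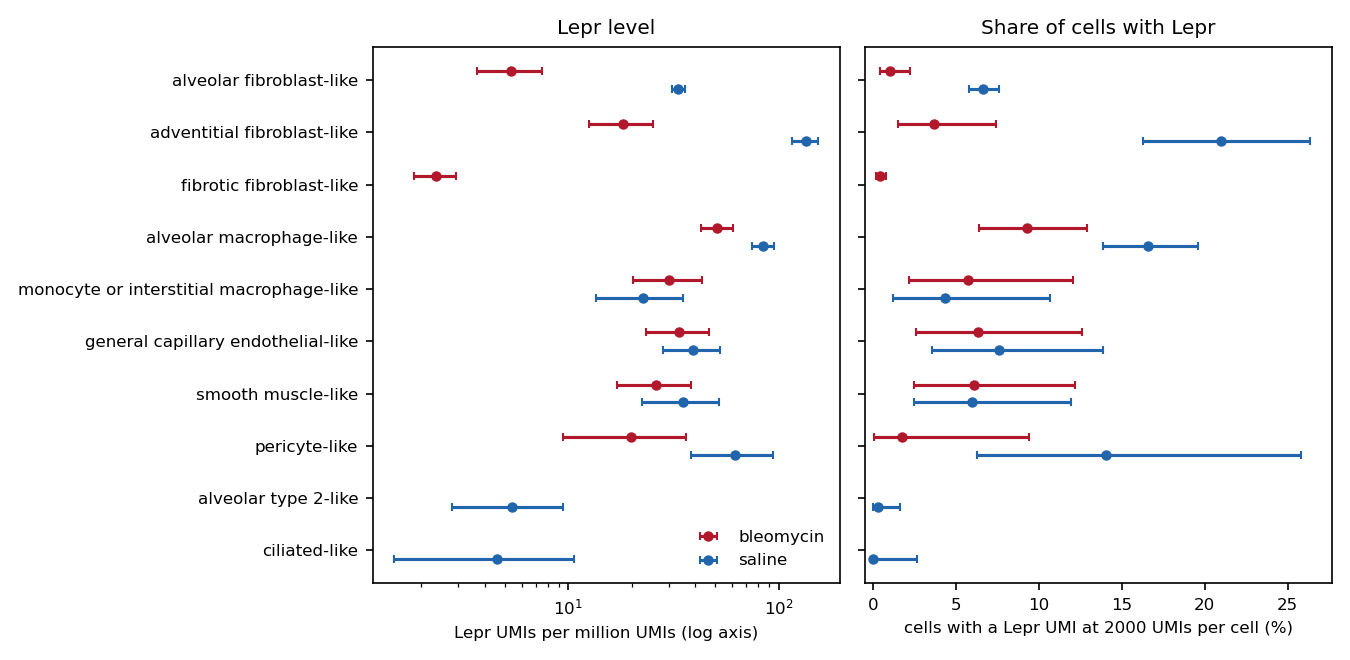
Lepr by cell class. The left panel gives the Lepr level in UMIs per 1000000 UMIs on a log axis, and the right panel the percent of cells with a Lepr UMI after thinning to 2000 UMIs, with bleomycin (red) above saline (blue) and bars for exact 95% counting intervals of 1 library each. The intervals of the libraries lie apart in alveolar and adventitial fibroblasts and in alveolar macrophages. Those of the Lepr level also lie apart in pericytes, with 57 cells in each library. The intervals overlap in monocytes or interstitial macrophages, general capillary cells and smooth muscle cells.

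Alveolar macrophages, the resident phagocytes of the airspace, held more Lepr per UMI than fibroblasts in both libraries. Their level was 51.1 UPM [42.6 to 60.8] after bleomycin, from 127 UMIs, and 84.1 UPM [74.4 to 94.6] after saline, from 275 UMIs. The log2 ratio was -0.71, a 1.64-fold lower level [1.33 to 2.05] that did not reach the 2-fold size. After thinning, 9.28% [6.39 to 12.9] of bleomycin macrophages and 16.6% [13.9 to 19.6] of saline macrophages held a Lepr UMI. Of the 8 members tested in this class 0 were higher and 0 lower, where 5.75% of all genes tested were lower and 2.84% higher. The bleomycin macrophages lay mostly in cluster 9 and the saline ones mostly in cluster 14, both with Chil3 and Ear2 among their leading genes.

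The macrophages also held fibroblast transcripts, which is relevant because a droplet can catch free RNA or a second cell. Their summed level of 8 fibroblast markers was 1770 UPM after bleomycin and 986 UPM after saline, and none of these markers was at 0. Lepr UMIs per UMI of Pdgfra, a fibroblast receptor gene, were 1.98 in bleomycin macrophages and 1.68 in saline macrophages, against 0.0137 in bleomycin fibroblasts and 0.0943 in saline fibroblasts. Thinned macrophages with a Lepr UMI held 726 UPM of fibroblast markers after bleomycin and 695 UPM after saline, and those without held 1332 and 813 UPM. In each library the sum was the lower one in the macrophages with Lepr, which were 31 cells after bleomycin and 113 after saline. The part of free RNA or second cells in the Lepr values of the macrophages was not tested.

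The share of all Lepr UMIs that came from fibroblasts was 42.6% of 437 in the bleomycin library and 72.4% of 1628 in the saline library. Alveolar macrophages gave 29.1% after bleomycin and 16.9% after saline, while they were 7.48% and 12.5% of the cells. These shares depend on which cells passed the sort and are no measure of the lung as a whole. General capillary endothelial cells, a single cluster with cells of both libraries, had 33.6 UPM [23.5 to 46.5] after bleomycin and 39.1 UPM [28.3 to 52.6] after saline. Smooth muscle cells had 26.0 UPM [17.0 to 38.2] after bleomycin and 35.1 UPM [22.5 to 52.2] after saline. The intervals overlapped in both classes, whose sums of 24 to 43 UMIs were too few for the size rule. The Lepr ratio of smooth muscle cells, -0.42, changed sign to 0.19 in thinned cells and to 0.14 without the barcodes of highest doublet score. In smooth muscle cells and in endothelial cells of all kinds, those with Lepr did not hold uniformly fewer fibroblast markers. This split is not given for general capillary cells alone. The 7 thinned smooth muscle cells with Lepr in each library had 3286 UPM of fibroblast markers after bleomycin and 5000 UPM after saline, against 2792 and 2236 UPM in those without. Endothelial cells of all kinds with Lepr had 1875 UPM after bleomycin (12 cells) and 1136 UPM after saline (22 cells), against 987 and 1688 UPM in those without. The part of free RNA or second cells in the Lepr values of these classes was not tested. Endothelial cells of all kinds together had 24.3 UPM [18.3 to 31.7] after bleomycin and 46.8 UPM [36.3 to 59.5] after saline, and this class also held 76 lymphatic endothelial cells after bleomycin and 25 after saline. Pericytes, 57 cells in each library, had 19.8 UPM [9.49 to 36.4] after bleomycin and 61.7 UPM [38.2 to 94.4] after saline.

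The 23 groups of cluster and library could be put in order of Lepr level. Saline adventitial fibroblasts came first at 134.5 UPM and did not overlap the next, saline cluster 17 at 96.2 UPM. Saline cluster 17 overlapped the main saline macrophage cluster at 88.6 UPM, whose lower bound just cleared the interval of saline cluster 20 at 68.8 UPM. From there each interval overlapped its lower neighbour down to bleomycin adventitial fibroblasts at 18.2 UPM. Saline alveolar type 2 and ciliated epithelial cells, at 5.42 UPM [2.80 to 9.47] and 4.56 UPM [1.48 to 10.6], stood next. The bleomycin fibroblast clusters 0, 6, 5 and 1 at 4.54, 3.36, 3.21 and 3.18 UPM followed, all overlapping their neighbours, and bleomycin cluster 7 closed the order without overlapping cluster 1.

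Lepr lies at chr4:101717404-101815352 on the plus strand of mm10 (GENCODE vM21), and its 7 annotated transcripts include protein-coding forms that end at 101792258, 101813667 and 101815352. The form with the most distant end has the longest coding sequence, 3486 bases, and the forms that end earlier have 2682 and 2676 coding bases. The gene counts merge all forms, so the levels above do not say how much of the mRNA encoded the signalling receptor. Upstream sequences of the 2 lower members are shown to let their start regions be compared. Each is the 250 bases before the start site in the RefSeq table on GRCm38.p6, read 5′ to 3′ on the gene's strand, chr4:101717157-101717406 on the plus strand for Lepr and chr11:117969367-117969616 on the minus strand for Socs3. Capitals mark the STAT motif TTCNNNGAA, which reads the same on both strands.
Lepr: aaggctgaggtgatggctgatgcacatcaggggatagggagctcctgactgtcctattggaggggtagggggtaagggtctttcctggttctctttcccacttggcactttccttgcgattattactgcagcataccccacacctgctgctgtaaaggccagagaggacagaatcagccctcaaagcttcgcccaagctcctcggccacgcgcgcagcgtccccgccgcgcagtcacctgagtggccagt
Socs3: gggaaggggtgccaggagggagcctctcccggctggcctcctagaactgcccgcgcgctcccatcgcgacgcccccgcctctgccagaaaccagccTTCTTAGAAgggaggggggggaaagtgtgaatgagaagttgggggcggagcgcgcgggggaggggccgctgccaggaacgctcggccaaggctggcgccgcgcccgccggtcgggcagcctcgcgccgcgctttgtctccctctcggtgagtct
The Socs3 sequence holds the motif 1 time, with its first base at -154 from the start site, and the Lepr sequence does not hold these letters. The Lepr sequence shown belongs to the first of its listed start sites. The window of a second one, chr4:101717656-101717955, does not hold the motif either. The table had 10 windows of 300 bases for 9 of the 10 members, and the Socs3 window was the single one with the motif. Leprotl1 had no entry. The motif stands in 8.30% of all 32851 windows in the table, and a match is a description of the letters, not of binding.

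Leprot and Leprotl1 encode small membrane proteins known to lower the amount of leptin receptor at the cell surface. Leprot lies on the same strand as Lepr and ends 58039 bases before it, with no overlap in the annotation. Leprot stood at 134 UPM [131 to 137] in bleomycin fibroblasts and 118 UPM [113 to 122] in saline fibroblasts, a log2 ratio of 0.19 beside the -3.35 of Lepr. In alveolar macrophages it stood at 136 UPM [122 to 151] after bleomycin and 79.2 UPM [69.8 to 89.4] after saline, a log2 ratio of 0.77 that stayed under the 2-fold size but passed it, at 1.06, in thinned cells. Leprotl1 stood at 78.4 UPM [76.1 to 80.8] in bleomycin fibroblasts and 53.2 UPM [50.4 to 56.0] in saline fibroblasts, a log2 ratio of 0.55. In fibroblasts as a whole the intervals of the libraries thus lay apart for both genes with the bleomycin level above, the opposite direction to Lepr. This did not hold in every class: Leprotl1 stood at 86.6 UPM [75.4 to 98.9] in bleomycin macrophages and 96.6 UPM [86.3 to 108] in saline macrophages, with overlapping intervals, and Leprot overlapped in alveolar fibroblasts. Saline epithelial cells had 39.2 UPM of Leprot and 36.1 UPM of Leprotl1, below both libraries of fibroblasts.

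Jak2, the kinase gene of the receptor, stood at 25.2 UPM [23.9 to 26.6] in bleomycin fibroblasts and 15.04 UPM [13.6 to 16.6] in saline fibroblasts, a log2 ratio of 0.71 that did not reach the 2-fold size. It was uneven among fibroblasts. Cluster 1 of the bleomycin library had 40.9 UPM [37.4 to 44.5] and saline cluster 18 had 47.9 UPM [35.5 to 63.1], whereas the remaining fibroblast clusters of at least 100 cells had 10.4 to 24.7 UPM. Cluster 18, led by Saa3, Cxcl10 and Ifit3, was an alveolar fibroblast cluster whose leading genes include interferon-induced ones. Lepr in these high-Jak2 clusters was 3.18 UPM in bleomycin cluster 1 and 18.2 UPM in saline cluster 18, so the clusters with the most kinase mRNA were not those with the most receptor mRNA. Alveolar fibroblasts had 19.5 UPM [16.2 to 23.3] after bleomycin and 14.8 UPM [13.3 to 16.5] after saline, a log2 ratio of 0.38. It became 1.06 without the barcodes of highest doublet score and 1.12 at the coarser clustering, both past the rule. Both settings clustered the cells anew, which changed the class from its 587 bleomycin cells. The alveolar name then included clusters with 711 and 1397 bleomycin cells, respectively. Both had Fmod and Timp1 among their leading genes, as had the high-Jak2 cluster 1. Bleomycin and saline adventitial fibroblasts had 15.5 and 10.4 UPM of Jak2, with overlapping intervals. In alveolar macrophages Jak2 was 9.26 UPM [5.87 to 13.9] after bleomycin and 15.9 UPM [11.9 to 20.8] after saline, from sums too small for the size rule.

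Stat3, the transcription factor of the pathway, differed little. It stood at 113 UPM [110 to 116] in bleomycin fibroblasts and 137 UPM [133 to 142] in saline fibroblasts, a log2 ratio of -0.28. Alveolar fibroblasts had 166 UPM [156 to 177] after bleomycin and 135 UPM [130 to 140] after saline, a log2 ratio of 0.30. Alveolar macrophages had 127 UPM in each library. Within the bleomycin library Stat3 was lowest among fibroblasts in the fibrotic clusters 5 and 7, at 68.0 and 68.7 UPM, and within the saline library it was highest in alveolar cluster 22, at 205 UPM [193 to 219]. The annotation has Stat5a overlapping Stat3 on the other strand, and whether the counting used strand is not given in the sources used here.

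**Figure D2:**
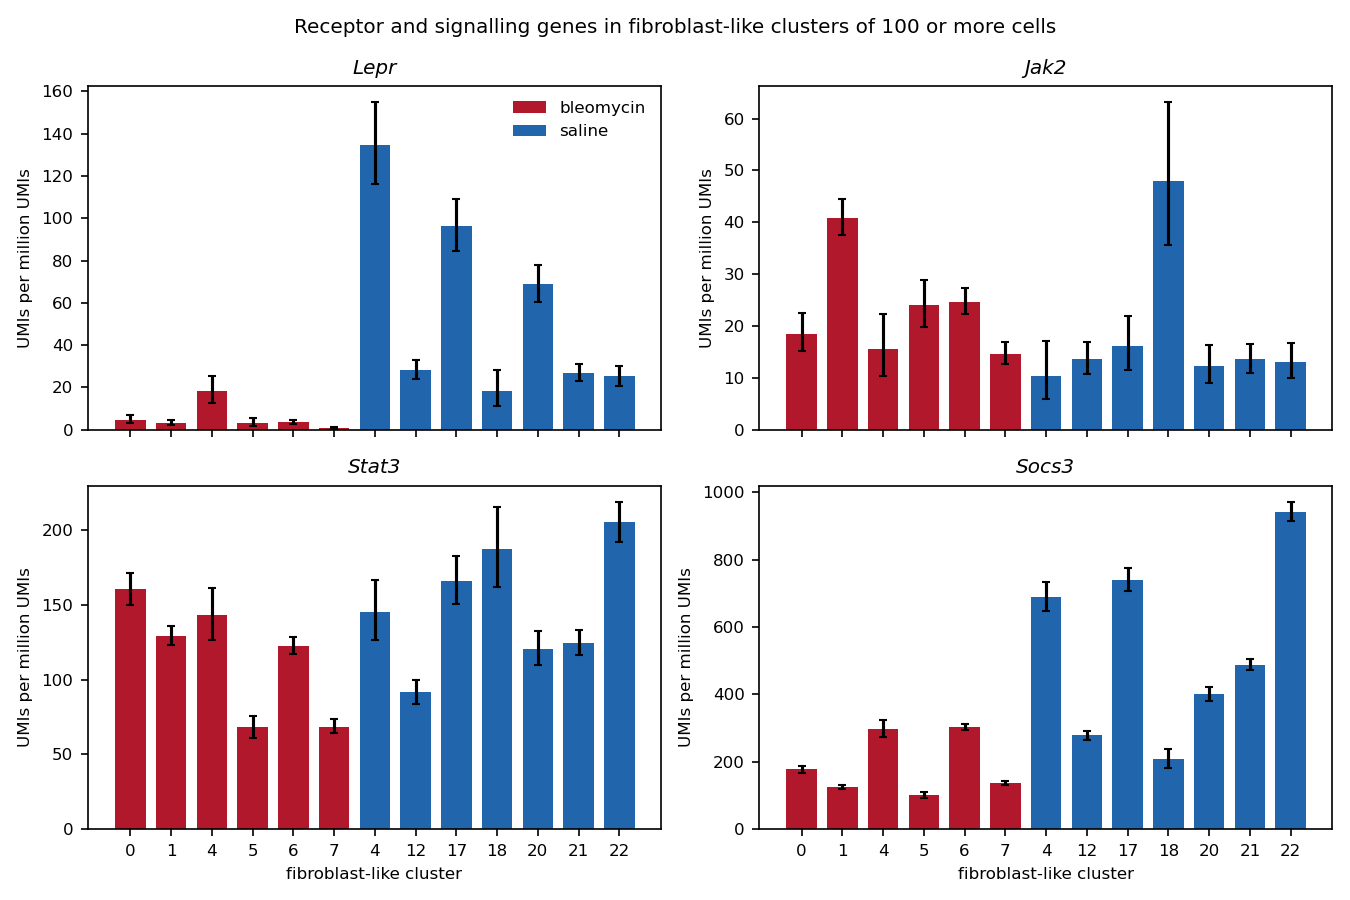
Lepr, Jak2, Stat3 and Socs3 in fibroblast clusters. Bars give the level in UMIs per 1000000 UMIs for each fibroblast cluster of at least 100 cells, with bleomycin clusters (red) left of saline clusters (blue) and exact 95% counting intervals of 1 library each. Lepr is at most 18.2 UPM in the bleomycin clusters and 18.2 to 134.5 UPM in the saline clusters, and the bleomycin clusters are lower in Socs3 than most saline clusters, while Jak2 is highest in saline cluster 18 and bleomycin cluster 1.

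Socs3, the feedback inhibitor made under STAT3, was lower in bleomycin fibroblasts. It stood at 190 UPM [186 to 194] in bleomycin fibroblasts and 527 UPM [518 to 536] in saline fibroblasts, a 2.77-fold lower level [2.70 to 2.85] and a log2 ratio of -1.47. Adventitial fibroblasts had 298 UPM [273 to 323] after bleomycin and 690 UPM [648 to 734] after saline, a log2 ratio of -1.21, and alveolar fibroblasts had 178 UPM and 497 UPM, a log2 ratio of -1.47. The thinned share of fibroblasts with a Socs3 UMI was 24.8% after bleomycin and 50.04% after saline. Saline alveolar cluster 22 had the most among fibroblasts, 943 UPM [915 to 971], and saline alveolar cluster 12 had 278 UPM, while saline cluster 18 had the least of the saline clusters, 208 UPM. Both lay below the 303 UPM of bleomycin cluster 6 and the 298 UPM of bleomycin adventitial cluster 4, so the libraries overlapped in Socs3 when read by cluster. General capillary endothelial cells had the highest level of a named class, 1290 UPM [1223 to 1360] after bleomycin and 1490 UPM [1418 to 1564] after saline, and alveolar macrophages were among the lowest, with 33.0 UPM [26.3 to 41.0] after bleomycin and 64.8 UPM [56.4 to 74.2] after saline.

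Immediate early genes, which many stimuli and tissue digestion itself induce, were also lower in bleomycin fibroblasts, as Socs3 was. Their sum over 24 genes in fibroblasts was 9057 UPM after bleomycin and 25176 UPM after saline. Of these genes 17 were lower and 0 higher, beside 9.62% lower and 6.22% higher of all genes tested there. Their median log2 ratio was -1.39 against -0.04 over all 13979 genes measured. Fosb, for example, stood at 103 UPM in bleomycin fibroblasts and 691 UPM in saline fibroblasts (log2 ratio -2.73), and Egr1 at 288 and 1366 UPM (log2 ratio -2.24). Saline cluster 22, highest in Socs3 among fibroblasts, also had the highest sum of these genes, 35777 UPM. Other fibroblast clusters did not keep this order. Bleomycin cluster 6 had 303 UPM of Socs3 at a sum of 10069 UPM, and bleomycin cluster 0 had 177 UPM at 13327 UPM. Saline clusters 12 and 18 had 278 and 208 UPM of Socs3 at sums of 21499 and 17317 UPM. In general capillary cells the sum was 17546 UPM after bleomycin and 25220 UPM after saline, beside a Socs3 log2 ratio of -0.21. In endothelial cells of all kinds it was 10936 UPM after bleomycin and 24335 UPM after saline, where Socs3 stood at 672 and 1273 UPM (log2 ratio -0.92). The part of this gene group in the Socs3 difference was not tested.

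Ptpn1 and Ptpn11, the phosphatase genes, differed little in fibroblasts as a whole. Ptpn1 stood at 54.9 UPM [53.0 to 56.9] in bleomycin fibroblasts and 51.9 UPM [49.2 to 54.7] in saline fibroblasts, and Ptpn11 at 37.6 UPM [35.9 to 39.2] and 40.3 UPM [37.9 to 42.7], with overlapping intervals for each gene. Within the kinds that both libraries share, Ptpn1 had the higher level after bleomycin without passing the size rule. Alveolar fibroblasts had 72.4 UPM after bleomycin and 50.5 UPM after saline, a log2 ratio of 0.51. Adventitial fibroblasts had 73.2 and 48.5 UPM, a log2 ratio of 0.58. Ptpn11 had log2 ratios of 0.28 in alveolar and 0.08 in adventitial fibroblasts. Ptpn1 was more abundant in alveolar macrophages, at 186 UPM [170 to 204] after bleomycin and 131 UPM [119 to 144] after saline, a log2 ratio of 0.51. It was lowest among bleomycin fibroblast kinds in the fibrotic one, at 39.7 UPM [37.6 to 41.9]. Gm42930 overlaps Ptpn11 on the same strand in the annotation, so reads of the 2 genes may not have been told apart.

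Irs1 and Irs2, the adaptor genes that insulin signalling also uses, had the lower level after bleomycin in fibroblasts without passing the size rule. Irs1 stood at 6.15 UPM [5.50 to 6.85] in bleomycin fibroblasts and 13.1 UPM [11.8 to 14.6] in saline fibroblasts, a log2 ratio of -0.98 at a level under the 20 UPM that the rule needs. Irs2 stood at 33.2 UPM [31.7 to 34.8] in bleomycin fibroblasts and 58.4 UPM [55.6 to 61.4] in saline fibroblasts, a log2 ratio of -0.80. Within the shared kinds the Irs2 log2 ratio was smaller, -0.25 in alveolar and -0.43 in adventitial fibroblasts. That of Irs1 was -0.81 and -1.05 there, at levels or sums too low for the rule. In alveolar macrophages Irs2 stood at 66.8 UPM [57.1 to 77.8] after bleomycin and 89.3 UPM [79.3 to 100.1] after saline, whereas Irs1 stayed near 2 UPM, with 2.01 UPM [0.654 to 4.70] after bleomycin and 1.83 UPM [0.673 to 3.99] after saline. The macrophages thus held both receptor mRNA and Irs2 mRNA but little Irs1. Each gene has a gene on the other strand over it, Gm9747 for Irs1 and 9530052E02Rik for Irs2.

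**Figure D3:**
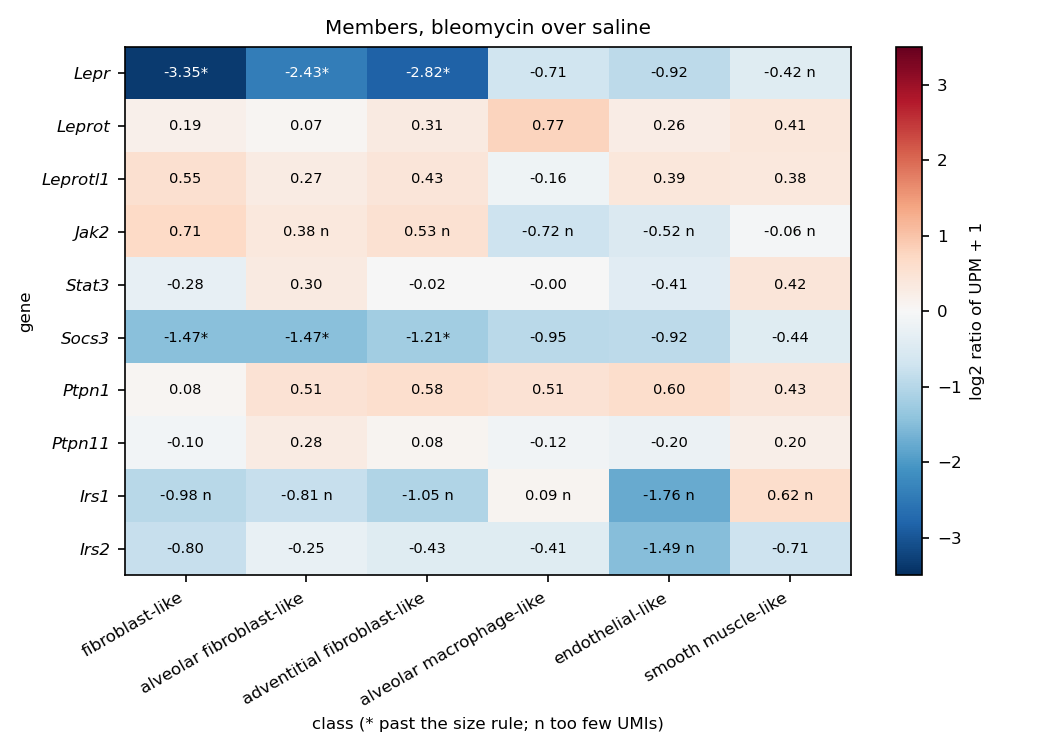
Log2 ratios of the 10 members, bleomycin over saline, in 6 classes. Each cell of the grid gives the log2 ratio of UPM plus 1 for a gene (row) and class (column), with a star for a gene past the size rule and n for too few UMIs. The stars stand at Lepr and Socs3 in fibroblasts and in their alveolar and adventitial kinds, with Lepr at -3.35 in fibroblasts and between -0.42 and -0.92 outside them, where the smooth muscle value changed sign under 2 of 7 alternatives.

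Outside the fibroblasts, no member passed the size rule in immune, endothelial or smooth muscle cells. In immune cells 0 of 8 members tested were higher and 0 lower, where 3.08% of all genes were higher and 5.35% lower. In endothelial cells 0 of 7 members tested were higher and 0 lower, where 8.94% of all genes were higher and 9.35% lower. In general capillary endothelial cells 0 of 6 were higher and 0 lower, beside 5.28% of all genes higher and 8.83% lower. In smooth muscle cells 0 of 7 were higher and 0 lower, where 6.24% of all genes were higher and 3.83% lower. When each library was clustered alone, Socs3 (-1.03) and Irs2 (-1.03) were lower in smooth muscle cells, and without the barcodes of highest doublet score Irs2 was lower (-1.08). Clustered alone, the saline class held 118 cells and a further cluster of 139 cells, while the bleomycin class held 115 cells. The further cluster had Ednrb, Fgf18 and Sbspon among its leading genes, as had the unnamed cluster 8 described below, so the classes compared in this setting were not alike. The median log2 ratio of the members tested in fibroblasts was -0.19, against -0.01 over all genes tested there.

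The ligand and the related receptors were read from lists of pathway genes. Lep, the leptin gene, had 0 UMIs in both libraries, which says only that these sorted cells did not hold it at this depth. Of 5 gp130 family receptor genes tested in bleomycin against saline fibroblasts, 2 were lower and 0 higher, beside the 9.62% lower and 6.22% higher of all genes tested there. With so few genes the count is a description. Il11ra1, the interleukin 11 receptor gene, had 76.6 UPM after bleomycin and 295 UPM after saline (log2 ratio -1.93), and Il6ra, the interleukin 6 receptor gene, had 21.1 and 53.4 UPM (log2 ratio -1.30). The shared subunit gene Il6st had 78.6 UPM after bleomycin and 101 UPM after saline, and Osmr, the oncostatin M receptor gene, had 59.3 and 58.5 UPM. In fibroblasts as a whole Lepr was therefore not the single receptor of this family with a lower level. Within alveolar and adventitial fibroblasts, where Lepr was lower too, 0 of these other receptor genes passed the rule. Il11ra1 had log2 ratios of -0.94 in alveolar and -0.95 in adventitial fibroblasts. Il6ra had -0.90 in alveolar fibroblasts and 0.23 in adventitial ones, the latter from too few UMIs for the rule. Of 2 gp130 cytokine genes tested in fibroblasts, Il6 was lower, with 69.7 UPM after bleomycin and 179 UPM after saline (log2 ratio -1.35), and 0 were higher. Il6 did not pass the rule within alveolar fibroblasts (-0.17) or adventitial fibroblasts (-0.38).

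Other JAK and STAT genes gave 2 lower and 0 higher of 4 tested in fibroblasts. Of all genes tested there 9.62% were lower and 6.22% higher, which also stands beside the inhibitor and adaptor counts below. Stat5b, a factor of growth hormone and cytokine signalling, was among the lower ones, with 9.84 UPM after bleomycin and 27.0 UPM after saline (log2 ratio -1.37). Within alveolar fibroblasts Stat5b did not pass the rule (-0.67), and adventitial fibroblasts had too few UMIs of it. Jak1, the kinase of most gp130 receptors, had 79.4 UPM after bleomycin and 121 UPM after saline (log2 ratio -0.60) and did not pass the rule. Of 5 further inhibitor genes tested, Socs1 was lower, with 14.8 UPM after bleomycin and 42.1 UPM after saline (log2 ratio -1.44), and 0 were higher. Socs1 passed the rule in adventitial fibroblasts (-1.05) but not in alveolar fibroblasts (-0.43). Of 12 adaptor, PI3 kinase and MAP kinase genes tested, 0 were lower and 0 higher, and their list had a median log2 ratio of -0.18. The adaptor genes were thus a list without a gene past the rule.

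STAT3 target genes went both ways. Of 18 tested in fibroblasts, 3 were higher and 5 lower after bleomycin, beside 6.22% higher and 9.62% lower of all 5884 genes tested, and the median log2 ratio was -0.27 against -0.04 over all genes measured. Ccnd1, which encodes cyclin D1, had 75.5 UPM after bleomycin and 14.3 UPM after saline (log2 ratio 2.32), and Timp1, an inhibitor of matrix proteases, had 1147 and 240 UPM (log2 ratio 2.25). Fgl2 had 6.44 UPM after bleomycin and 32.0 UPM after saline (log2 ratio -2.15), and Vegfa, a growth factor of vessels, had 10.6 and 46.8 UPM (log2 ratio -2.05). The third higher gene was Serpina3n, and the others lower were Junb, Pim1 and Pim3. Within alveolar and adventitial fibroblasts Timp1 (1.07 and 2.13), Serpina3n (1.71 and 1.94) and Pim3 (-1.45 and -1.44) passed the rule. Vegfa (-2.38) and Junb (-1.30) passed it in adventitial fibroblasts alone, and Pim1 (-1.18) in alveolar ones alone. Fgl2 (-0.79 and 0.03) and Ccnd1 (0.84 and 0.45) passed it in neither kind. All but the adventitial Fgl2 value came from levels or sums too low for the rule. Junb is also among the immediate early genes above. These genes have other regulators too, and the list says nothing of STAT3 activity.

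Whether receptor and signalling mRNAs lie in the same cells was read in thinned cells of the same class and library. Of the 331 saline fibroblasts with a Lepr UMI, 23.0% [18.5 to 27.9] held a Stat3 UMI, against 22.3% [20.9 to 23.8] of the 3332 without. For Socs3 the shares were 54.7% [49.1 to 60.1] in cells with Lepr and 49.6% [47.9 to 51.3] in cells without, and for Jak2 1.81% [0.668 to 3.90] and 3.15% [2.58 to 3.80]. The intervals overlapped for each of these 3 genes. At least 1 of the 3 was found in 63.7% of the saline fibroblasts with Lepr and in 60.2% of those without. Among 25 bleomycin fibroblasts with Lepr, 5 held Stat3, 6 held Socs3 and 2 held Jak2, and the shares in the 3578 without Lepr were 21.0%, 24.8% and 4.92%. Cells of 1 library are not replicates, so these shares describe the 2 libraries only.

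**Figure D4:**
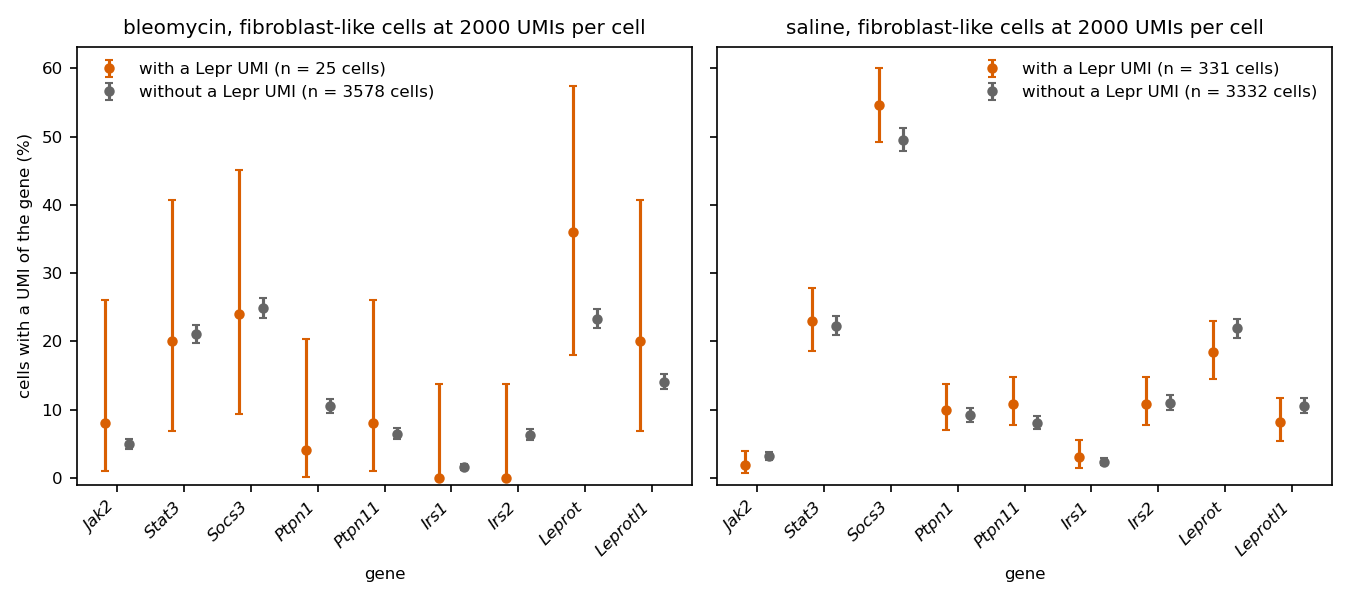
Signalling genes in fibroblasts with and without Lepr. Points give the percent of fibroblasts with a UMI of each gene after thinning to 2000 UMIs, for cells with a Lepr UMI (orange) and without one (grey), with exact 95% intervals, for bleomycin on the left and saline on the right. The intervals of cells with and without Lepr overlap for all 9 genes in both panels, and those of the 25 bleomycin cells with Lepr are wide.

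At full depth more cells held all parts. Jak2, Stat3 and Socs3 were found together in 25 of 143 bleomycin fibroblasts with Lepr (17.5% [11.6 to 24.7]) and in 15.5% [14.3 to 16.7] of bleomycin fibroblasts without it. They were found together in 48 of 875 saline fibroblasts with Lepr (5.49% [4.07 to 7.21]) and in 4.41% [3.68 to 5.24] of those without. Cells with and without Lepr had like depth, with medians of 13375 and 13720.5 UMIs after bleomycin and 7001 and 6778.5 after saline, while the libraries differ in depth and their shares are not compared. Leprot was found in 78.3% of bleomycin fibroblasts with Lepr and 79.1% of those without, and in 54.4% and 54.2% of saline fibroblasts. In thinned alveolar macrophages of the saline library 26 of 113 cells with Lepr held Stat3 (23.0%), against 22.4% of 568 without, and 28.3% against 24.8% held Ptpn1. Of 31 thinned bleomycin macrophages with Lepr, 5 held Stat3 and 7 held Ptpn1, against 25.7% and 27.1% of 303 without. Of 22 saline endothelial cells with Lepr, 12 held Socs3 (54.5% [32.2 to 75.6]), against 77.2% [69.6 to 83.7] of 149 without. In bleomycin endothelial cells 8 of 12 with Lepr held it (66.7% [34.9 to 90.1]), against 45.8% [38.6 to 53.2] of 192 without, and the intervals overlapped in each library.

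The genes most like Lepr in pattern were sought over 14 groups of named kind and library with at least 100 cells, by Pearson's r of log2(UPM + 1). Among 9751 genes the closest included Atp1b3 (0.84), Fosl2 (0.83), Tapbp (0.83), Ppp1r9b (0.81) and H2-M3 (0.80). Among the members r with Lepr was 0.50 for Ptpn1, 0.42 for Stat3, 0.28 for Leprot, 0.03 for Socs3 and -0.32 for Jak2. The groups share 2 libraries and their depth, so these values are descriptions. Over 23 groups of cluster and library, which include clusters with no kind, the leading 6 genes were others, from Acox3 (0.80) to Tmcc3 (0.77), so the list rests on how the cells are grouped.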

How the data were processed

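Live tdtomato+ lung cells were captured with the 3′ V2 kit of 10x Genomics, per the labels' protocols. The authors deposited unnormalized counts, UMIs for each gene in each barcode, made with Cell Ranger 2.1.1 on mm10 per the submitters' processing notes. The annotation release and cell-calling settings were not given in the sources used here. The bleomycin library holds 61537182 UMIs in 4473 barcodes and the saline library 37570380 in 5455, and 33 barcode sequences occur in both. The members and lists were chosen with earlier results of these data known, and the cluster naming thresholds after the clusters were seen.

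Barcodes with at least 500 genes and at most 10% mitochondrial UMIs were kept, which left out 5 bleomycin and 23 saline barcodes. Doublets were kept in the reported values. Scrublet's automatic threshold marked 4 bleomycin and 8 saline barcodes, too few to trust, so an alternative left out the 160 and 236 highest scores. Leiden clusters (scanpy 1.11.5, resolution 1, 30 components, 2000 variable genes chosen without 102 member and list genes) took a lineage from marker lists when at least 3 markers were in 25% of cells and the 10 leading genes, each in at least 10% of the cluster's cells, did not speak against it. UMIs were summed per class and library. Exact intervals at 95% were Poisson for levels, conditional binomial for ratios and Clopper-Pearson for shares. Classes were compared with at least 100 cells in each library, and list medians use genes with at least 20 UMIs. The size rule and intervals were tried on counts simulated from saline fibroblast means with counting error alone. Such counts hold no spread between cells, animals or libraries, so they cannot show how the rule behaves under it. Named pathway genes were up to 4 per list with the largest ratios past the rule in fibroblasts, plus Lep, Il6st, Il6ra, Osmr, Il6 and Jak1. Serpina3n, Junb, Pim1 and Pim3 were named after their values were seen. Some genes these rules picked are not reported here. Alternatives were edgeR 4.0.16 TMM factors, equal weight per cell, the doublet filter, thinning, 2 other clusterings and a prior of 0.1 UPM.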

Additional observations from a re-analysis of the deposited data

How the results depend on the processing

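The libraries give 1 sample per group, so no alternative speaks to the spread between animals. In fibroblasts the Lepr and Socs3 log2 ratios stayed negative and past the size rule under all 7 alternatives, from -3.64 to -3.27 for Lepr and from -1.47 to -1.34 for Socs3. With a prior of 0.1 UPM Lepr was -3.64. Socs3 was -1.38 with TMM factors, -1.34 with equal weight per cell and -1.36 after thinning. With a 1.5-fold size in place of 2-fold, 1 member (Jak2) was higher in fibroblasts. At that size Irs2, with a 1.76-fold lower level, was lower there beside Lepr and Socs3. The share of fibroblasts with a Lepr UMI depends on depth: thinned to 1000 UMIs it was 0.416% after bleomycin and 4.83% after saline, and thinned to 5000 UMIs it was 1.74% and 16.7%. At 5000 UMIs Stat3 was found in 45.9% of bleomycin and 49.5% of saline fibroblasts with Lepr. This share rose with depth too, and that of cells without Lepr at 5000 UMIs is not given here. TMM factors shifted all log2 ratios by 0.14 in all cells, 0.11 in alveolar macrophages and -0.11 in smooth muscle cells, and by less than 0.1 in the other classes. The Lepr ratio of smooth muscle cells ranged from -0.63 to 0.19 and kept its sign under 5 of 7 alternatives, and that of Leprotl1 there ranged from -0.79 to 0.49. Leprot and Jak2 in smooth muscle cells, Leprotl1, Jak2, Stat3 and Ptpn11 in adventitial fibroblasts, and Leprotl1, Stat3, Ptpn11 and Irs1 in alveolar macrophages also changed sign under at least 1 setting. None of these passed the size rule in the reported values, and the cause was not tested. No paired analysis was possible because each group has 1 library.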

Other observations

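The cell with the most Lepr UMIs was a monocyte or interstitial macrophage of the bleomycin library, which held 15 of the 30 Lepr UMIs of that class. The class had 30.2 UPM [20.4 to 43.1] after bleomycin, where 9 of 105 cells held a Lepr UMI, and 22.6 UPM [13.6 to 35.3] after saline, where 16 of 93 did. Cluster 8, which had markers of both smooth muscle and fibroblasts and was left unnamed, had 5.28 UPM of Lepr [0.639 to 19.1] in 44 bleomycin cells and 47.9 UPM [30.4 to 71.9] in 134 saline cells. Its Socs3 level was 430 UPM after bleomycin and 1637 UPM after saline.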
